A study of Homo sapiens with 9 samples.

Results

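The 37 genes of the human mitochondrial chromosome (chrM) were described across a knockdown of FOSL1, the gene of the AP-1 transcription factor FRA-1, in a bile duct cancer cell line. A gene was a member where the chromosome column of the count files read chrM. The rule gave 37 of 58381 genes, made up of 13 protein-coding, 2 ribosomal RNA (rRNA) and 22 transfer RNA (tRNA) genes. It used position alone and no measured value.

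The cells were EGI-1, an established human cholangiocarcinoma line carrying a tetracycline-inducible short hairpin RNA. The groups were FOSL1sh3 and FOSL1sh10, with a different hairpin against FOSL1 each, and GFPsh, with a control hairpin against GFP, at 3 libraries a group. All 3 groups, the control included, had received 2 ug/ml doxycycline for 4 days, and RNA was taken 24 h after seeding. Doxycycline inhibits mitochondrial translation, as background, and no library without it was analysed here. The labels do not say that the 3 libraries of a group came from separate cultures or whether a line was 1 clone, so the p-values rest on a spread between libraries that could be technical.

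Mitochondrial DNA encodes a small set of subunits of the respiratory chain, whose other subunits come from nuclear genes. The MT-ND genes encode subunits of complex I (NADH dehydrogenase), MT-CYB the cytochrome b of complex III, the MT-CO genes the core of complex IV (cytochrome c oxidase) and the MT-ATP genes parts of the ATP synthase. Both strands of the circle are copied into long precursor RNAs that are cut at the tRNA genes between the coding genes, so genes on the same strand can share a precursor and still end with different transcript levels through processing and stability. The rRNAs MT-RNR1 and MT-RNR2 belong to the mitochondrial ribosome.

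The genes lie almost without spacing. Of 36 pairs of neighbours 25 have 0 bases between them and 5 overlap, and the largest gap is 31 bases. On the plus strand as the files give it lie 28 genes, and MT-ND6 is the 1 coding gene among the 9 on the minus strand. MT-ND3, MT-ND4L, MT-ND4, MT-ND5 and MT-ND6 follow each other (chrM:10059-14673, hg38), with no other coding gene in between, and the MT-CO and MT-ATP genes lie upstream of them (chrM:5904-9990). MT-ND4L overlaps MT-ND4 by 7 bases, and both are carried by the same messenger RNA, as background. That junction is shown because a read across it matches both genes, with the shared bases in capitals (GENCODE release 29 transcripts, hg38, plus strand, chrM:10745-10781).
MT-ND4L and MT-ND4 junction: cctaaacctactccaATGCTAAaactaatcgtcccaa

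The libraries were of a kind that reads near the 3′ end of polyadenylated transcripts, as background, so the gene ends are shown for the 4 complex I genes that were lower in all 6 hairpin libraries than in all controls, and for MT-CO3 and MT-CYB beside them. Each is the last 30 bases of the gene on its own strand, 5′ to 3′, from the same transcripts, with the stop codon in capitals, or the part of it that the gene holds. A gene end need not be the end of the messenger RNA. That of MT-ND4L is not, as its messenger RNA also carries MT-ND4.
MT-ND3: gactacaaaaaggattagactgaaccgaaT
MT-ND4L: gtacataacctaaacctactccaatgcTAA
MT-ND5: ctcatcctaaccctactcctaatcacaTAA
MT-ND6: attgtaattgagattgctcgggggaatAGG
MT-CO3: tgtatgtctccatctattgatgagggtctT
MT-CYB: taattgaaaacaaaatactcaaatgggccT

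Of the 13 coding genes 6 end in an incomplete stop codon, which polyadenylation completes as background. They are 4 of the 7 MT-ND genes and 2 of the 6 other coding genes. The longest run of A within a gene was 3 to 8 bases in the MT-ND genes (median 6) and 4 to 7 in the others (median 5), and GC content was 40.2% to 47.7% (median 43.1%) against 39.6% to 46.6% (median 46.2%). The ranges overlapped for each of these features.

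The targeted gene was lower in every hairpin library. FOSL1 stood at 72.3, 70.3 and 44.9 CPM (counts per 1000000 counts of the library, with library sizes scaled by TMM) with FOSL1sh3 and at 70.9, 57.1 and 65.8 with FOSL1sh10, against 303, 257 and 182 with GFPsh. The log2 fold changes were -1.98 (SE 0.198, edgeR adjusted p = 1.2e-05) and -1.94 (SE 0.197, adjusted p = 1.03e-05). Library totals were 6893026 to 10604251 counts. The bile duct epithelial markers KRT7, KRT19, EPCAM and SOX9 were present in each library, at a summed level of 5080 to 5913 CPM, on library totals without TMM as for the other marker sums. CD3E, DCN and CYP3A4 had 0 counts throughout. The hepatocyte markers ALB, APOA1 and CYP3A4 summed to 0 to 0.776 CPM, with the highest library in GFPsh. The summed level was 2.88 to 9.52 CPM for 4 leukocyte markers and 2.88 to 9.19 CPM for 5 markers of fibroblasts and endothelium, both with the highest library in FOSL1sh10. Most of these sums came from CD14 (2.88 to 9.41 CPM) and COL1A1 (2.11 to 6.57 CPM). PTPRC, LYZ and COL1A2 had at most 2 counts in any library. Ribosomal protein genes took 27.3% ± 0.204 of counts with FOSL1sh3 and 22.1% ± 1.898 with FOSL1sh10, against 25.4% ± 0.802 with GFPsh (SD, n = 3 each). The part of these shifts in the results was not tested.

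Mitochondrial genes together took 3.51%, 2.58% and 2.06% of counts in the FOSL1sh3 libraries and 2.15%, 2.26% and 2.71% in the FOSL1sh10 libraries, against 2.82%, 2.34% and 2.64% in the GFPsh libraries. The means were 2.72% ± 0.735, 2.37% ± 0.298 and 2.60% ± 0.240 (SD, n = 3 each) and the groups overlapped. FOSL1sh3 replicate 1 lay highest of the 9, and it recurs below as a library that stands apart for MT-RNR2, MT-ND4 and MT-CYB. Within the mitochondrial counts MT-CO3 took 34.9% to 45.0% and MT-RNR2 19.4% to 33.3%. In bulk RNA, fewer cells of a type and less RNA per cell cannot be told apart, and the number of mitochondrial genomes was not measured.

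The 7 complex I genes made up 17.4%, 19.5% and 18.9% of mitochondrial coding counts with FOSL1sh3 and 20.2%, 18.2% and 17.8% with FOSL1sh10, against 21.9%, 28.6% and 23.9% with GFPsh. All 6 hairpin libraries lay below all 3 controls. The means were 18.6% ± 1.06, 18.7% ± 1.26 and 24.8% ± 3.43 (SD, n = 3 each), and no test was run on this sum over members. MT-CO3 held 49.3% to 62.7% of the coding counts, so the share was also taken without it, a choice made after its level was seen. The share was then 46.8%, 49.7% and 46.8% with FOSL1sh3 and 43.0%, 41.9% and 43.6% with FOSL1sh10, against 51.0%, 56.4% and 52.7% with GFPsh, and the hairpin libraries again lay below the controls. As a share of all mitochondrial counts, rRNA and tRNA included, the complex I genes overlapped between hairpins and controls.

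**Figure D1:**
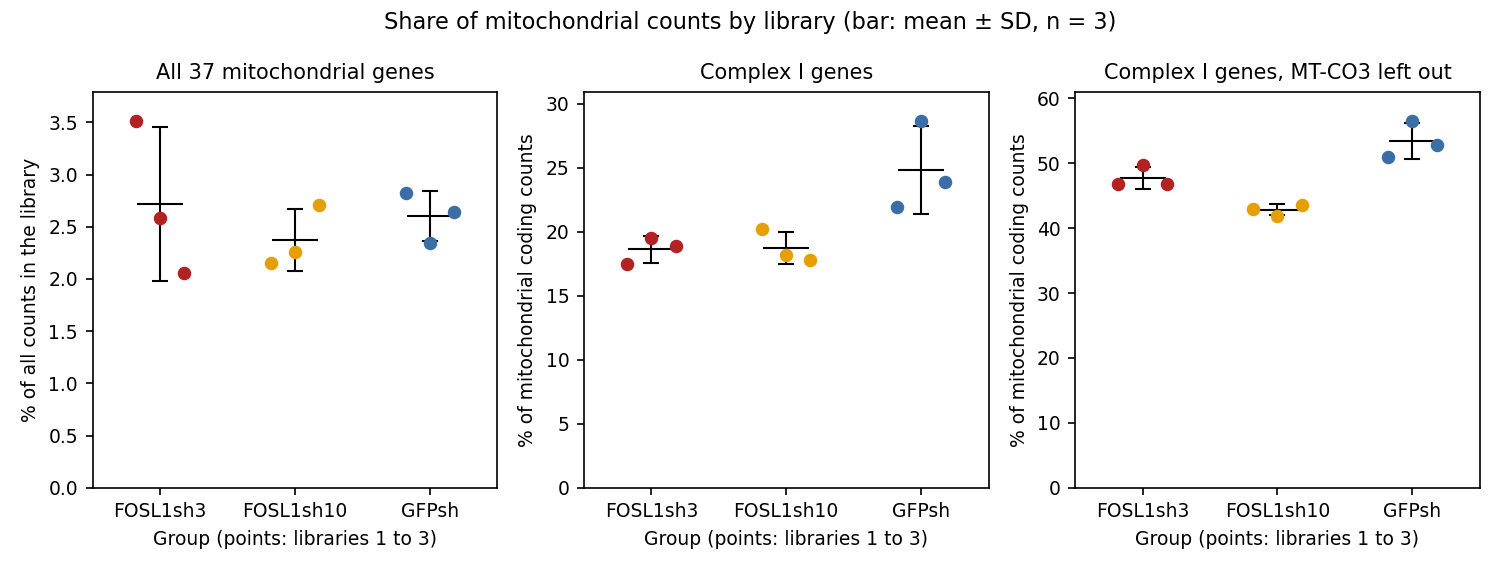
Percent of all counts on the 37 mitochondrial genes (left), percent of mitochondrial coding counts on the 7 complex I genes (middle) and the same share with MT-CO3 left out (right), by group on the x axis, with 1 point per library and bars for the mean ± SD of 3 libraries. The left panel overlaps between groups, while in the middle panel the hairpin libraries sit at 17.4% to 20.2% and the GFPsh libraries at 21.9% to 28.6%.

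In summed level, as CPM of the library total without TMM scaling, the complex I genes stood at 3835, 3507 and 2931 CPM with FOSL1sh3 and 3074, 3192 and 3009.6 CPM with FOSL1sh10, against 3969, 4750.2 and 4531 CPM with GFPsh. The sum of MT-CO, MT-ATP and MT-CYB was 18143, 14468 and 12580.2 CPM with FOSL1sh3 and 12166, 14333 and 13896 CPM with FOSL1sh10, against 14118, 11852 and 14425 CPM with GFPsh. On this scale the complex I sums of the hairpin libraries were all below the controls, and those of the other genes overlapped with them. The TMM factors were 0.921 for FOSL1sh3 replicate 1 and 1.001 for GFPsh replicate 1. With TMM scaling the complex I sum of FOSL1sh3 replicate 1 lay above that of GFPsh replicate 1, so the groups overlapped.

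Counts per gene were tested with edgeR's quasi-likelihood test, adjusted over the 12814 genes that passed its filter on low counts, and a gene was called at an adjusted p under 0.05. The filter kept 22 of the 37 mitochondrial genes, namely all 13 coding genes, both rRNAs and 7 of the 22 tRNAs. The 15 tRNA genes left out (MT-TQ, MT-TM, MT-TW, MT-TA, MT-TN, MT-TS1, MT-TD, MT-TK, MT-TG, MT-TR, MT-TH, MT-TS2, MT-TL2, MT-TE and MT-TT) had at most 16 counts in any library. MT-TQ, MT-TA, MT-TN and MT-TK had none in any of the 9 libraries, which allows up to 0.283 to 0.435 CPM per library for counting error alone.

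FOSL1sh3 against GFPsh asked which transcripts differ with this hairpin. Of the 13 coding genes 4 fell, and these were MT-ND3, MT-ND4L, MT-ND5 and MT-ND6, all of complex I. Over all genes tested 5.65% were called lower. Of the 7 complex I genes 4 were called lower, with a median log2 fold change of -0.73, and of the 6 other coding genes 0 were called by edgeR, 1 of them at an unadjusted p under 0.05 (MT-CO2), with a median of 0.21. The median of all genes tested was 0.01. None of the 22 was called higher, where 5.21% of all genes were.

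With the same control libraries, the other hairpin was set against GFPsh. Of the 13 coding genes 6 fell, namely MT-ND2, MT-ND3, MT-ND4L, MT-ND4, MT-ND5 and MT-CYB, and the proline tRNA gene MT-TP fell too, where 2.15% of all genes were called lower. These include 5 of the 7 complex I genes, whose median log2 fold change was -1.03, and 1 of the 6 other coding genes, whose median was 0.16. The median of all genes was 0.00. None of the 22 was called higher, where 3.13% of all genes were, and the 11 of the 22 with an unadjusted p under 0.05 all had negative log2 fold changes. Averaged over both hairpins, MT-ND2, MT-ND3, MT-ND4L, MT-ND5, MT-ND6 and MT-TP were lower than in GFPsh, where 2.97% of all genes were called lower. None was called higher, where 3.25% of all genes were. Of these, MT-ND6 was no longer called when FOSL1sh10 replicate 1, FOSL1sh10 replicate 2 or any 1 of the GFPsh libraries was left out (adjusted p = 0.0666 to 0.176), and MT-TP when FOSL1sh10 replicate 1, FOSL1sh10 replicate 3, GFPsh replicate 1 or GFPsh replicate 3 was (0.0601 to 0.265). Relative to the summed mitochondrial counts in place of TMM scaling, MT-ND4L, MT-ND5 and MT-ND6 were called lower with FOSL1sh3, MT-ND4L, MT-ND4 and MT-CYB with FOSL1sh10, and MT-ND4L and MT-ND5 in the mean of both. This scaling moved the median log2 fold change of all genes with FOSL1sh10 to 0.24.

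**Figure D2:**
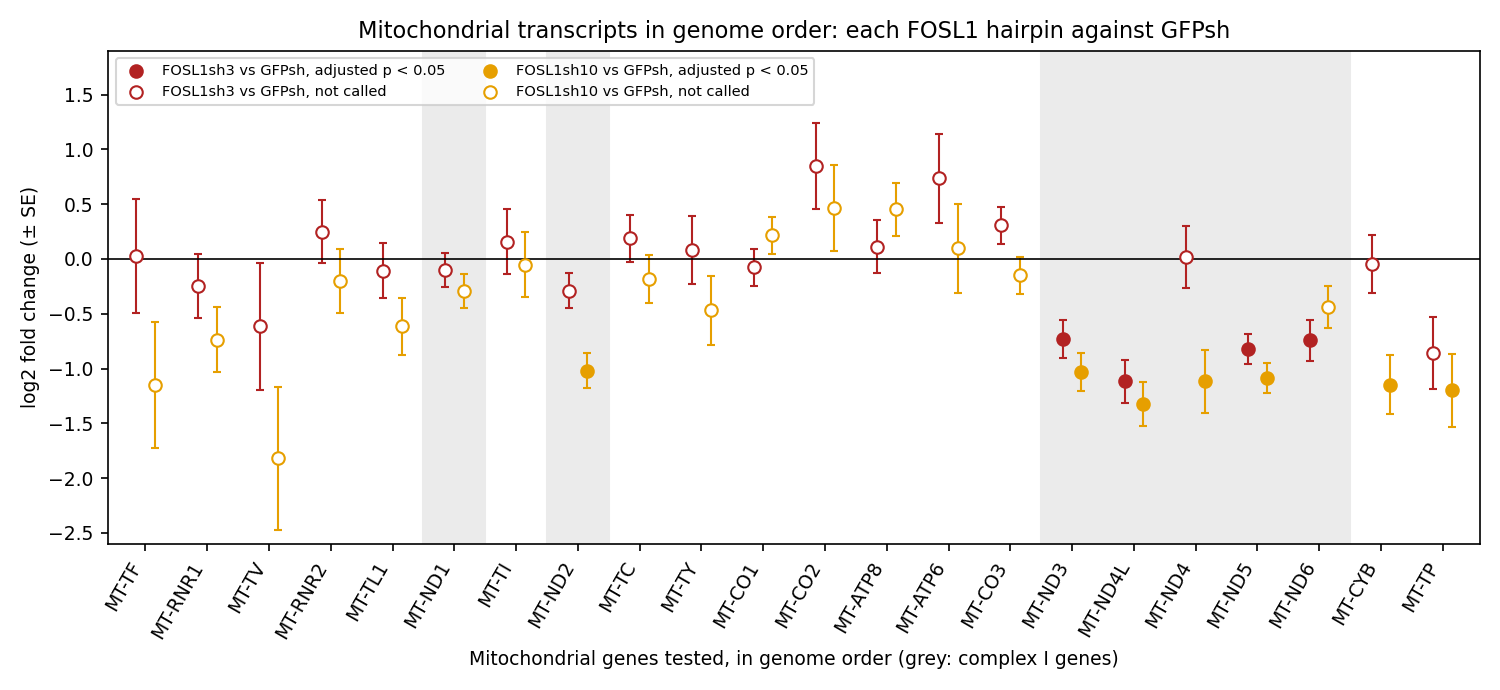
Log2 fold change with its SE against GFPsh for the 22 mitochondrial genes tested, in genome order along the x axis, for FOSL1sh3 (red) and FOSL1sh10 (orange), with filled points at an adjusted p under 0.05 and complex I genes on grey. MT-CO1 to MT-CO3 lie between -0.15 and 0.85, and MT-ND3 to MT-ND6 lie between -1.32 and -0.44 apart from MT-ND4 with FOSL1sh3 at 0.02.

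MT-ND5 (chrM:12337-14148), one of the proton-pumping membrane subunits of complex I, gave the smallest adjusted p of the mitochondrial genes. Its level was 561, 521 and 598 CPM with FOSL1sh3 and 427, 494 and 475 CPM with FOSL1sh10, against 877, 1035 and 1058 CPM with GFPsh. The hairpin libraries were all lower than the controls, with FOSL1sh10 below FOSL1sh3 throughout. The log2 fold change was -0.82 (SE 0.136, adjusted p = 0.00122) with FOSL1sh3 and -1.09 (SE 0.137, adjusted p = 7.43e-05) with FOSL1sh10, which left 56.6% and 47.0% of the control mean.

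MT-ND4L (chrM:10470-10766), a small membrane subunit, showed the largest changes of the coding genes with either hairpin. It stood at 22.8, 21.2 and 32.2 CPM with FOSL1sh3 and 23.4, 24.8 and 18 CPM with FOSL1sh10, against 41.8, 63.8 and 59.5 CPM with GFPsh. The controls were all higher than the 6 hairpin libraries. The log2 fold change was -1.12 (SE 0.195, adjusted p = 0.00191) with FOSL1sh3 and -1.32 (SE 0.197, adjusted p = 0.000415) with FOSL1sh10. Reads that touch the bases shared with MT-ND4, shown above, are by the counter's default assigned to neither gene, so part of the end of MT-ND4L goes uncounted in each group. MT-ND4, on the same messenger RNA, gave 0.02 with FOSL1sh3 and -1.12 with FOSL1sh10. Counts of MT-ND4L alone are thus not a level of that messenger RNA, and the difference between these genes was not tested.

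MT-ND3 (chrM:10059-10404), another small membrane subunit, was at 47.9, 42.4 and 68.0 CPM with FOSL1sh3 and 48.4, 36.1 and 43.9 CPM with FOSL1sh10, against 75.0, 92.5 and 94.3 CPM with GFPsh. FOSL1sh3 replicate 3 came nearest to the controls without reaching them. The log2 fold change was -0.73 (SE 0.173, adjusted p = 0.0130) with FOSL1sh3 and -1.03 (SE 0.175, adjusted p = 0.00130) with FOSL1sh10. The call with FOSL1sh3 ended without GFPsh replicate 3 (adjusted p = 0.0524).

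MT-ND6 (chrM:14149-14673, minus strand), a membrane subunit and the 1 coding gene read from the other strand, was at 296, 347 and 184 CPM with FOSL1sh3 and 309.5, 322 and 389.7 CPM with FOSL1sh10, against 433, 536 and 415 CPM with GFPsh. All 6 hairpin libraries were below the controls, here with FOSL1sh3 lower on average. The log2 fold change was -0.74 (SE 0.190, adjusted p = 0.0188) with FOSL1sh3 and -0.44 (SE 0.189, adjusted p = 0.203) with FOSL1sh10, which was not called. The call with FOSL1sh3 ended without FOSL1sh3 replicate 3 (adjusted p = 0.0618) and without GFPsh replicate 2 (adjusted p = 0.0779). Counting did not use strand, so reads of MT-ND6 and of plus-strand RNA across the same bases cannot be told apart.

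MT-ND2 (chrM:4470-5511), a membrane subunit lying apart from those genes, was lower with FOSL1sh10 than with either GFPsh or FOSL1sh3. It stood at 108, 87.0 and 134 CPM with FOSL1sh3 and 77.6, 61.3 and 59.4 CPM with FOSL1sh10, against 129, 145 and 127 CPM with GFPsh. The FOSL1sh10 libraries were below all others, while FOSL1sh3 replicate 3 lay among the controls. The log2 fold change was -0.29 (SE 0.160, adjusted p = 0.260) with FOSL1sh3 and -1.02 (SE 0.163, adjusted p = 0.000764) with FOSL1sh10, and FOSL1sh3 against FOSL1sh10 gave 0.73 (SE 0.163, adjusted p = 0.00702).

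MT-ND4 (chrM:10760-12137), a proton-pumping membrane subunit, depended on 1 library with FOSL1sh3. It was at 1296, 473 and 437 CPM with FOSL1sh3 and 413, 290.1 and 303 CPM with FOSL1sh10, against 782, 689 and 711 CPM with GFPsh. FOSL1sh3 replicate 1 was the highest of all 9 libraries, whereas the other FOSL1sh3 libraries and all FOSL1sh10 libraries were below the controls. With FOSL1sh3 the log2 fold change was 0.02 (SE 0.285, adjusted p = 0.978), and with FOSL1sh10 it was -1.12 (SE 0.289, adjusted p = 0.0280).

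MT-CYB (chrM:14747-15887) followed the same pattern outside complex I. It was at 1527, 495 and 734 CPM with FOSL1sh3 and 516, 392 and 374 CPM with FOSL1sh10, against 945, 988 and 911 CPM with GFPsh. FOSL1sh3 replicate 1 was again the highest library and the other 5 hairpin libraries were below the controls. The log2 fold change was -0.04 (SE 0.266, adjusted p = 0.937) with FOSL1sh3 and -1.15 (SE 0.270, adjusted p = 0.0161) with FOSL1sh10.

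Without FOSL1sh3 replicate 1, FOSL1sh3 against GFPsh gave -0.68 for MT-ND4 and -0.63 for MT-CYB, both called lower, and 6 mitochondrial genes were called lower in place of 4. In the mean of both hairpins 9 were then called lower in place of 6, with MT-RNR1, MT-ND4 and MT-CYB added. With the replicate number as a block and all libraries kept, MT-ND4 (-0.65, adjusted p = 0.0312) and MT-CYB (-0.69, adjusted p = 0.0289) were also called lower in that mean. This library also had the highest mitochondrial share and the highest total count, and their part in its MT-ND4 and MT-CYB levels was not tested. The FOSL1sh10 calls of both genes ended under several settings. That of MT-ND4 ended with DESeq2 (adjusted p = 0.148), without FOSL1sh10 replicate 2 (0.119) or 3 (0.115) and without GFPsh replicate 1 (0.0849), 2 (0.0610) or 3 (0.0704). That of MT-CYB ended with DESeq2 (adjusted p = 0.0768) and without FOSL1sh10 replicate 2 (0.0735), FOSL1sh10 replicate 3 (0.0833) or GFPsh replicate 2 (0.0524).

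**Figure D3:**
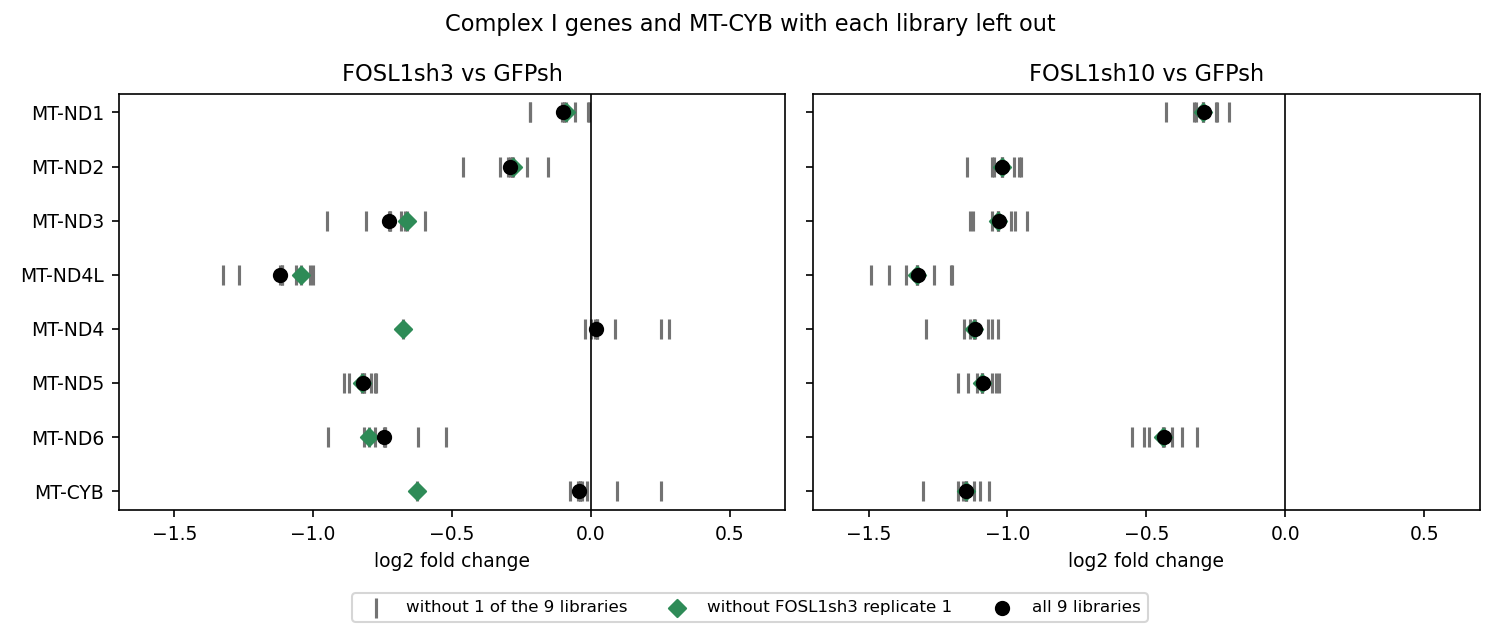
Log2 fold change against GFPsh on the x axis for the 7 complex I genes and MT-CYB, with all 9 libraries (black), with each library left out in turn (grey ticks) and without FOSL1sh3 replicate 1 (green). With FOSL1sh3, MT-ND4 moves to -0.68 and MT-CYB to -0.63 without that library, while MT-ND5 stays at -0.77 or below in all of these fits.

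MT-ND1 (chrM:3307-4262), the membrane subunit next to the quinone site, was the complex I gene called with neither hairpin. It was at 1843, 2163 and 1615 CPM with FOSL1sh3 and 1723, 1682 and 1514 CPM with FOSL1sh10, against 1636, 2258 and 2137 CPM with GFPsh. The groups overlapped, at log2 fold changes of -0.10 (SE 0.155, adjusted p = 0.720) with FOSL1sh3 and -0.29 (SE 0.155, adjusted p = 0.317) with FOSL1sh10. It had the most counts of the 7 complex I genes in each of the 9 libraries.

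The complex IV genes were not called in either comparison with GFPsh. MT-CO3, the complex IV subunit with the most counts, was at 14997, 11386 and 9680.2 CPM with FOSL1sh3 and 7948, 9033 and 9316 CPM with FOSL1sh10, against 10318, 8305 and 10521 CPM with GFPsh. It gave 0.31 (SE 0.168, adjusted p = 0.254) with FOSL1sh3 and -0.15 (SE 0.168, adjusted p = 0.695) with FOSL1sh10. MT-CO1, the catalytic subunit, was at 2680.1, 2906 and 1782 CPM with FOSL1sh3 and 2971, 3031 and 3040.3 CPM with FOSL1sh10, against 2615, 2254 and 2906 CPM with GFPsh. All FOSL1sh10 libraries were above all others for this gene, at 0.22 against GFPsh (SE 0.168, adjusted p = 0.534), so it was not called. Over all genes tested the FOSL1sh10 libraries lay all above the controls in 14.3% and all below in 13%.

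MT-CO2, the subunit that takes electrons from cytochrome c, was at 439, 195 and 585 CPM with FOSL1sh3 and 385, 434 and 116 CPM with FOSL1sh10, against 161, 340.2 and 176 CPM with GFPsh. Replicates of the same group differed severalfold, and the log2 fold changes of 0.85 (SE 0.394, adjusted p = 0.174) with FOSL1sh3 and 0.47 (SE 0.393, adjusted p = 0.575) with FOSL1sh10 were not called. MT-CO2 was called higher with FOSL1sh3 without FOSL1sh3 replicate 2 (1.18, adjusted p = 0.0469). MT-ATP6, the proton channel subunit of the ATP synthase, was at 87.1, 85.0 and 364 CPM with FOSL1sh3 and 126, 155 and 63.8 CPM with FOSL1sh10, against 86.5, 123 and 113 CPM with GFPsh. FOSL1sh3 replicate 3 was the highest library for both genes and FOSL1sh10 replicate 3 the lowest. MT-ATP6 gave 0.73 (SE 0.407, adjusted p = 0.260) with FOSL1sh3 and 0.10 (SE 0.406, adjusted p = 0.932) with FOSL1sh10. MT-ATP8, which overlaps MT-ATP6 by 46 bases, stayed at 13 to 30.1 CPM over the 9 libraries, at 0.11 (SE 0.242) with FOSL1sh3 and 0.45 (SE 0.239) with FOSL1sh10, adjusted p = 0.809 and 0.317.

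A nuclear copy was highest in the same library as MT-ATP6. MTATP6P1, a pseudogene on chromosome 1 at 633696 to 634376 (hg38), had 93, 98 and 450 counts with FOSL1sh3 and 237, 412 and 54 counts with FOSL1sh10, against 74, 197 and 119 counts with GFPsh. MT-ATP6 had 849, 589 and 2861 counts with FOSL1sh3 and 881, 1374 and 626 counts with FOSL1sh10, against 627, 1089 and 1023 counts with GFPsh. The highest library was FOSL1sh3 replicate 3 for both, and FOSL1sh10 replicate 2 was the highest of its group for both. Near-identical copies can share or lose reads, so values of MT-ATP6, MTATP6P1 and other mitochondrial genes with copies are uncertain to that extent. Of 417 nuclear copies listed 54 had a count and 7 passed the filter, and all of them together came to 0.291% to 0.839% of the mitochondrial counts. None of the 7 was called against GFPsh by edgeR, with 0 (FOSL1sh3) and 1 (FOSL1sh10) at an unadjusted p under 0.05. Those with the smallest p in the mean of both hairpins were MTATP6P1 (0.86, SE 0.522), MTND1P23 (0.39, SE 0.311), MTRNR2L8 (-0.46, SE 0.406) and MTCO1P40 (0.17, SE 0.214), with adjusted p of 0.363 to 0.692. Without a filter on low counts MTATP6P1 was called higher with FOSL1sh3 (adjusted p = 0.00245) and FOSL1sh10 (0.000518), and MTCO1P40 with FOSL1sh10 (0.0285).

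**Figure D4:**
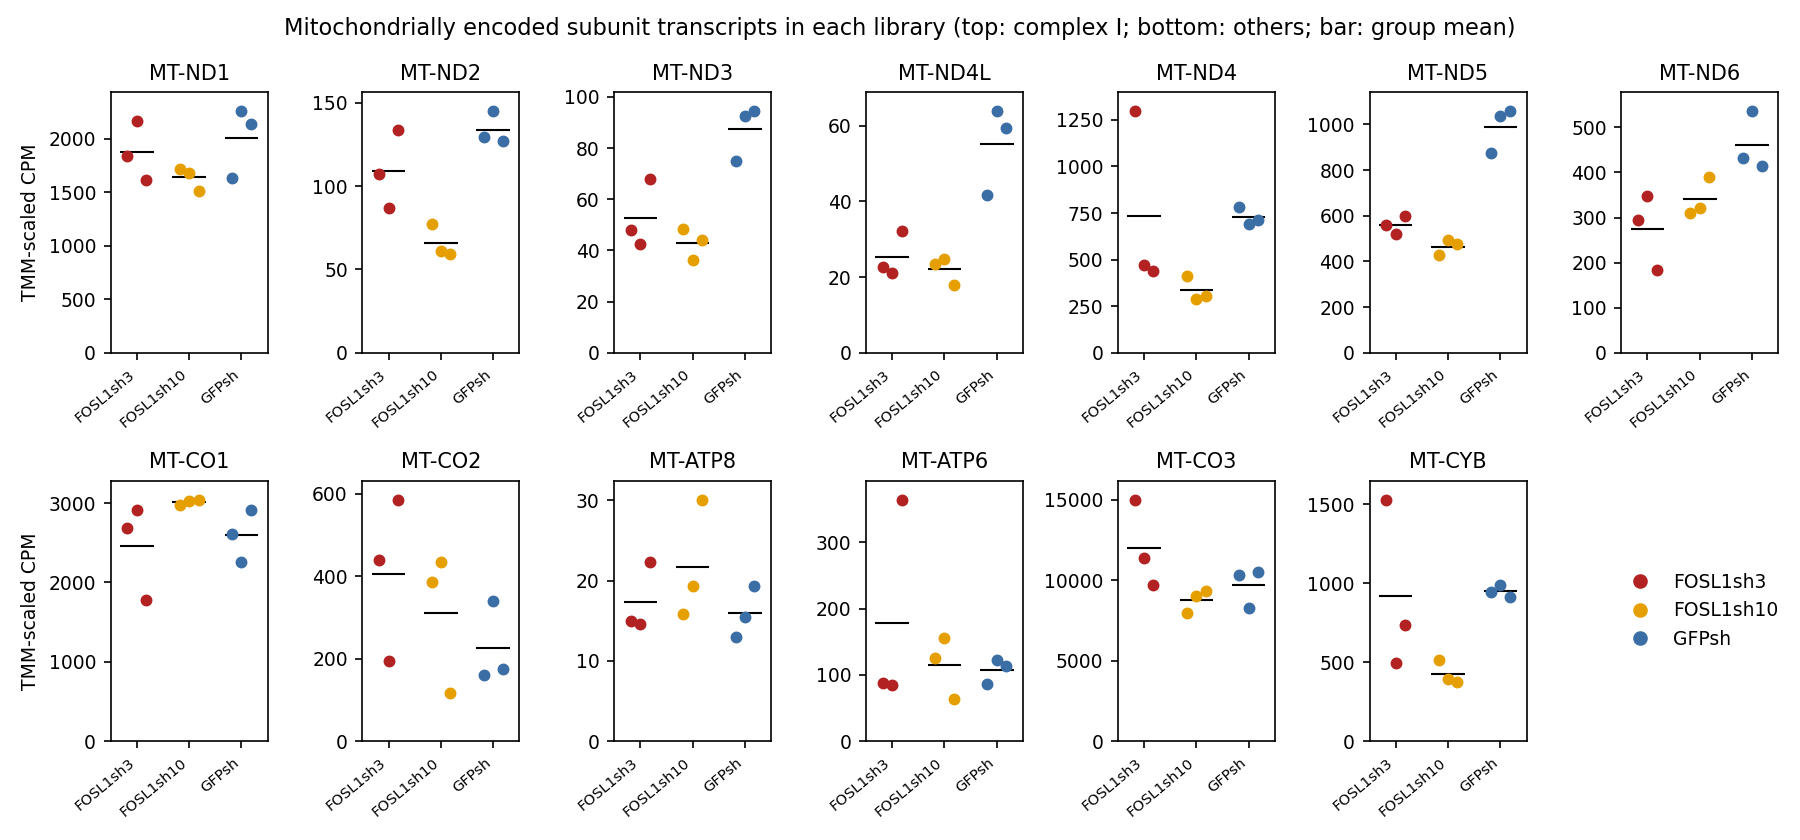
TMM-scaled CPM of the 13 mitochondrial coding genes in each library, on axes from 0, with 1 panel per gene, the complex I genes in the top row and the others below, and a bar at the mean of the 3 libraries of FOSL1sh3, FOSL1sh10 and GFPsh from left to right. MT-ND3, MT-ND4L, MT-ND5 and MT-ND6 have all 6 hairpin libraries below the controls, and FOSL1sh3 replicate 1 stands out at 1296 CPM for MT-ND4 and 1527 CPM for MT-CYB.

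The rRNA genes varied widely between libraries of 1 group. MT-RNR2 was at 12334, 7309.7 and 4431 CPM with FOSL1sh3 and 5221, 3986 and 8405 CPM with FOSL1sh10, against 8266, 6022 and 5970.1 CPM with GFPsh. MT-RNR1 was at 1877, 809.7 and 814 CPM with FOSL1sh3 and 882, 571 and 1042 CPM with FOSL1sh10, against 1807, 881 and 1471 CPM with GFPsh. The groups overlapped for both genes and neither was called by edgeR, with adjusted p from 0.169 to 0.767 with a single hairpin against GFPsh and 1 value at an unadjusted p under 0.05 (MT-RNR1 with FOSL1sh10, -0.74, SE 0.296). MT-RNR1 was called lower with FOSL1sh10 by edgeR when the replicate number was a block (-0.70, adjusted p = 0.0414), when only these groups were fitted (adjusted p = 0.0455) and without a filter on low counts (adjusted p = 0.000103). These rRNAs reach such libraries through internal stretches of A or short added tails, as background, so their counts need not follow their abundance.

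The 7 tRNA genes tested stood at 0 to 28 CPM. MT-TP, on the minus strand, was at 5.34, 3.61 and 7.00 CPM with FOSL1sh3 and 3.42, 4.75 and 4.38 CPM with FOSL1sh10, against 10.5, 4.95 and 13.7 CPM with GFPsh. It was called lower with FOSL1sh10 (-1.20, SE 0.333, adjusted p = 0.0405) and not with FOSL1sh3 (-0.86, SE 0.326, adjusted p = 0.0981), where it was called without GFPsh replicate 2 (0.0227). The call ended without any 1 of the FOSL1sh10 libraries or GFPsh replicate 1 or 3 (adjusted p = 0.0869 to 0.232) and with library totals alone (0.0554). MT-TV had 18, 9 and 7 counts with FOSL1sh3 and 6, 0 and 9 counts with FOSL1sh10, against 8, 15 and 31 counts with GFPsh, and was not called. MT-TF, MT-TL1, MT-TI, MT-TC and MT-TY gave log2 fold changes between -0.11 and 0.19 with FOSL1sh3 and between -1.15 and -0.05 with FOSL1sh10, with adjusted p of 0.190 or more. MT-TC and MT-TY are on the minus strand and share 1 base, and all of these short genes border longer transcripts whose reads can reach into them.

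Taken in genome order, the genes called lower with FOSL1sh3 lay in 1 stretch, MT-ND3 to MT-ND6, within which MT-ND4 was not called. Of the 22 genes tested 12 had negative log2 fold changes with FOSL1sh3, some of them outside this stretch. The most negative there were MT-TP (-0.86), MT-TV (-0.62), MT-ND2 (-0.29) and MT-RNR1 (-0.25), and none of these was called. From MT-ND3 to MT-ND6 the log2 fold changes were -0.73, -1.12, 0.02, -0.82 and -0.74 with FOSL1sh3 and -1.03, -1.32, -1.12, -1.09 and -0.44 with FOSL1sh10. Upstream, from MT-CO1 through MT-CO2, MT-ATP8 and MT-ATP6 to MT-CO3, they were -0.08, 0.85, 0.11, 0.73 and 0.31 with FOSL1sh3 and 0.22, 0.47, 0.45, 0.10 and -0.15 with FOSL1sh10. For these 5 MT-ND genes the complex and the position cannot be told apart. The genes that separate them are MT-ND1 and MT-ND2 before this region and MT-CYB after it, of which MT-ND2 and MT-CYB were lower with FOSL1sh10 and none was called with FOSL1sh3 when all 9 libraries were fitted. MT-CO3 and MT-ND3 are plus-strand genes with the tRNA gene MT-TG alone between them, and their log2 fold changes were 0.31 and -0.73 with FOSL1sh3 and -0.15 and -1.03 with FOSL1sh10. The difference between the 2 genes was not tested.

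Considered library by library, the FOSL1sh3 libraries lay all below GFPsh in 4 of the 22 genes (MT-ND3, MT-ND4L, MT-ND5 and MT-ND6), against 14.5% of all genes tested, and all above in none, against 14.7%. The FOSL1sh10 libraries lay all below in 9, namely MT-TV, MT-ND2, MT-ND3, MT-ND4L, MT-ND4, MT-ND5, MT-ND6, MT-CYB and MT-TP, against 13% of all genes. They lay all above GFPsh in 1, MT-CO1, against 14.3% of all genes. All 6 hairpin libraries were below all 3 controls in the same 4 genes as with FOSL1sh3, where 4.39% of all genes were, and above them in none, where 5.27% were.

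Levels between genes were compared per kb of gene length, a scale on which 3′ reads put short genes too high. Reads shared with or lost to near-identical nuclear copies, described above, leave the levels of genes with such copies uncertain as well. In GFPsh, MT-CO3 was highest at 12391 ± 1562 CPM per kb (SD, n = 3), followed by MT-RNR2 at 4331 ± 841, MT-ND1 at 2103 ± 345, MT-CO1 at 1681 ± 212 and MT-RNR1 at 1453 ± 492 CPM per kb. MT-ND6 (878 ± 124) and MT-CYB (831 ± 33.7) did not differ beyond their spread, nor did MT-ND5 (546 ± 54.3) and MT-ND4 (528 ± 35.4 CPM per kb). Below them, in order of their means, came MT-CO2 (330 ± 145), MT-ND3 (252 ± 30.8), MT-ND4L, MT-ATP6, MT-ND2 and, at 76.9 ± 15.4 CPM per kb, MT-ATP8. The spreads of MT-CO2 and MT-ND3 overlapped. With FOSL1sh10 MT-CO1 (1955 ± 24.4 CPM per kb) stood above MT-ND1 (1715 ± 116), and with FOSL1sh3 MT-ND4L (85.5 ± 20.01) stood near MT-ATP8 (83.5 ± 20.9 CPM per kb).

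**Figure D5:**
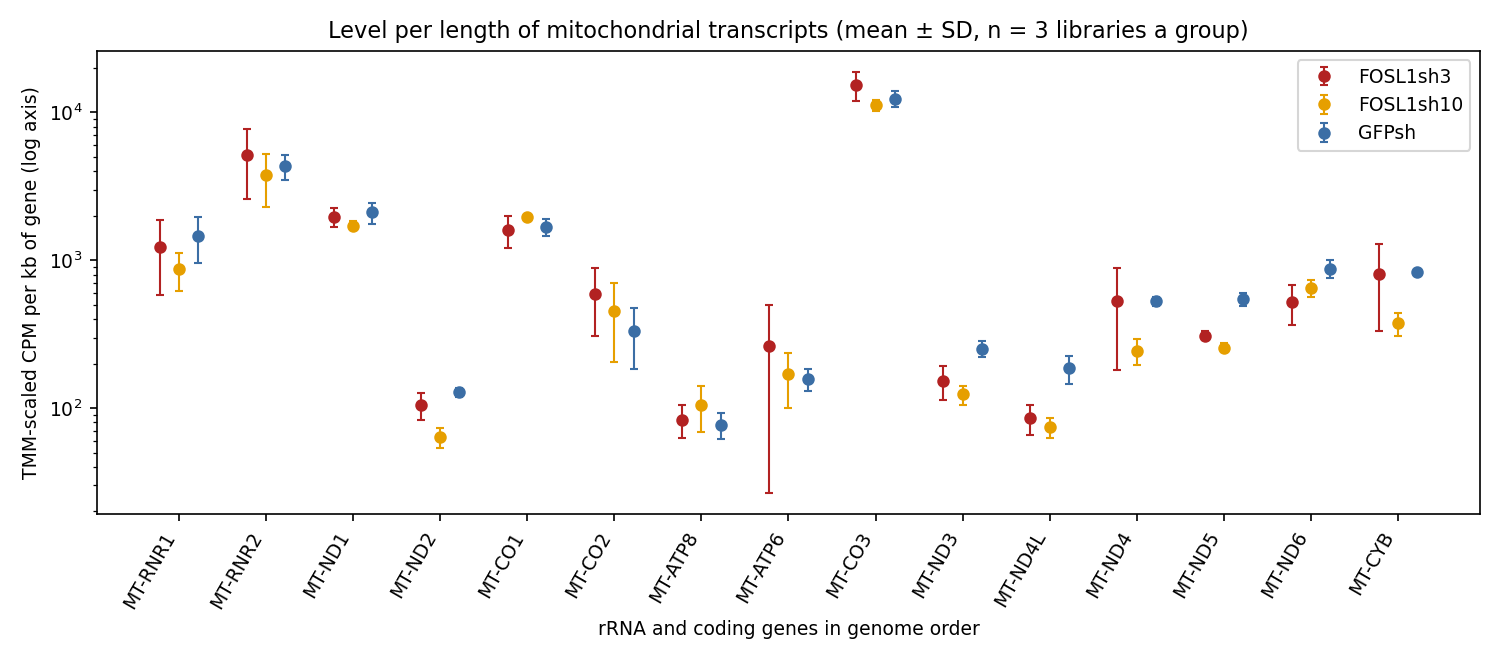
TMM-scaled CPM per kb of gene (log axis) for the 2 rRNA and 13 coding genes in genome order, as mean ± SD of 3 libraries each for FOSL1sh3 (red), FOSL1sh10 (orange) and GFPsh (blue). MT-CO3 stands highest, at 12391 CPM per kb in GFPsh, and MT-ATP8 lowest there, at 76.9 CPM per kb, while MT-ND2, next to MT-ND1 among coding genes, lies far below it.

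FOSL1sh3 against FOSL1sh10 asked whether the hairpins differ from each other. Of the 22 genes 3 were higher with FOSL1sh3, where 5.74% of all genes were, and 0 were lower by edgeR, where 7% of all genes were and where 0 of these 22 had an unadjusted p under 0.05 in that direction. The 3 were MT-ND2 (given above), MT-ND4 (1.13, SE 0.289, adjusted p = 0.0157) and MT-CYB (1.10, SE 0.270, adjusted p = 0.0125). Without FOSL1sh3 replicate 1 the difference was 0.44 for MT-ND4 (adjusted p = 0.0962) and 0.52 for MT-CYB (0.0723), so both were smaller and no longer called. Both calls also ended with DESeq2 (0.0901 and 0.0574). Without FOSL1sh10 replicate 2 or 3 only MT-ND2 was called. MT-ND5, MT-ND4L, MT-ND3 and MT-ND6 differed between hairpins by 0.27, 0.21, 0.30 and -0.31, with adjusted p of 0.205 to 0.536. MT-CO3 differed by 0.46 (SE 0.168, adjusted p = 0.0837) and was called without FOSL1sh3 replicate 3 (0.0384) and with DESeq2 (0.0474). The FOSL1sh3 libraries were all above the FOSL1sh10 libraries in MT-ND2, MT-TC, MT-CO3, MT-ND4 and MT-ND5, where 14.8% of all genes were, and all below in MT-CO1, where 15.9% were.

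Of 37 nuclear genes for complex I subunits tested none was called in any of the 4 comparisons by edgeR. At an unadjusted p under 0.05 were 2 (FOSL1sh3), 9 (FOSL1sh10), 6 (mean of both) and 5 (hairpins against each other). Their median log2 fold change against GFPsh was -0.02 with FOSL1sh3 and -0.12 with FOSL1sh10. The smallest p in the mean of both hairpins belonged to NDUFA5, an accessory subunit, at 13.2, 10.4 and 8.53 CPM with FOSL1sh3 and 11.6, 7.35 and 12.5 CPM with FOSL1sh10, against 16.0, 13.8 and 18.2 CPM with GFPsh (-0.59, SE 0.195, adjusted p = 0.0778). It was followed by the accessory subunits NDUFC1 (-0.52), NDUFB1 (-0.37) and NDUFB4 (-0.28), with adjusted p of 0.0939 to 0.184. In that comparison NDUFA5 was called lower without FOSL1sh3 replicate 1 (adjusted p = 0.0433) and without a filter on low counts (0.0452), and NDUFC1 without FOSL1sh3 replicate 2 (0.0238) and without the filter (0.00280). With FOSL1sh10, where NDUFC1 gave -0.67 (SE 0.214, adjusted p = 0.0800), it was called lower with DESeq2 (0.0408), with only the groups compared (0.0273), without the filter (0.000925) and without FOSL1sh3 replicate 2 (0.0433) or GFPsh replicate 1 (0.0396). NDUFB1, at -0.59 with FOSL1sh10 (SE 0.190, adjusted p = 0.0813), was called lower with only the groups compared (0.0292), without the filter (0.0105) and without FOSL1sh3 replicate 3 (0.0431).

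Genes that copy and transcribe mitochondrial DNA were called lower with FOSL1sh3 in 3 of 17 cases, where 5.65% of all genes were, and with FOSL1sh10 in 1 of 17, a single gene, where 2.15% of all genes were. TFAM, which packages mitochondrial DNA and starts its transcription, was at 50.2, 55.0 and 40.2 CPM with FOSL1sh3 and 63.8, 69.3 and 50.7 CPM with FOSL1sh10, against 81.1, 71.5 and 68.9 CPM with GFPsh. It gave -0.61 with FOSL1sh3 (SE 0.156, adjusted p = 0.0192) and -0.27 with FOSL1sh10 (SE 0.154, adjusted p = 0.368). The transcription factor TFB2M gave -0.67 (SE 0.197, adjusted p = 0.0350) and MTERF3, a repressor of mitochondrial transcription, -0.63 (SE 0.174, adjusted p = 0.0268) with FOSL1sh3. The exonuclease MGME1 gave -0.49 with FOSL1sh10 (SE 0.132, adjusted p = 0.0337). Each of these 4 calls ended when single libraries were left out, at adjusted p of 0.0744 and 0.101 for TFAM, 0.0509 to 0.181 for TFB2M, 0.0685 to 0.111 for MTERF3 and 0.0739 to 0.163 for MGME1. The libraries were FOSL1sh3 replicate 3 and GFPsh replicate 1 for TFAM, FOSL1sh3 replicates 1 and 3, FOSL1sh10 replicate 3 and GFPsh replicates 1 and 3 for TFB2M, FOSL1sh3 replicates 1 and 3 and GFPsh replicates 2 and 3 for MTERF3, and each FOSL1sh10 and GFPsh library for MGME1.

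Of 25 genes for processing and stability of mitochondrial RNA, 0 were called against GFPsh by edgeR, with 7 (FOSL1sh3) and 2 (FOSL1sh10) at an unadjusted p under 0.05. FASTKD1 (-0.74), PNPT1, the mitochondrial polynucleotide phosphorylase (-0.41), PTCD2 (-0.36) and NSUN4, an rRNA methyltransferase (-0.25), had the smallest p in the mean of both hairpins, with adjusted p of 0.0927 to 0.245. FASTKD1 was called lower there without FOSL1sh3 replicate 1 (adjusted p = 0.0407). GRSF1, an RNA-binding protein of mitochondrial RNA granules that binds MT-ND6 transcripts as background, was at 75.8, 78.3 and 54.5 CPM with FOSL1sh3 and 99.99, 115 and 111 CPM with FOSL1sh10, against 102, 88.1 and 98.0 CPM with GFPsh. It was lower in FOSL1sh3 than in FOSL1sh10 (-0.64, SE 0.1503, adjusted p = 0.00959), where 7% of all genes were called lower, and that call ended without FOSL1sh10 replicate 2 (0.0559). Against GFPsh it was called lower with FOSL1sh3 under DESeq2 (-0.46, adjusted p = 0.0397), under library totals alone (0.0336) and without FOSL1sh3 replicate 2 (0.0333).

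Among regulators of mitochondrial biogenesis 1 of 7 tested was called lower with FOSL1sh3, where 5.65% of all genes were, and the same gene in the mean of both hairpins, where 2.97% were. With FOSL1sh10 0 of the 7 were called by edgeR, and 0 had an unadjusted p under 0.05. GABPB1, a subunit of the nuclear respiratory factor GABP, was at 6.06, 9.09 and 2.67 CPM with FOSL1sh3 and 9.41, 17.0 and 12.9 CPM with FOSL1sh10, against 20.001, 23.1 and 16.5 CPM with GFPsh. It fell with FOSL1sh3 (-1.75, SE 0.308, adjusted p = 0.00200), gave -0.59 with FOSL1sh10 (SE 0.285, adjusted p = 0.265), and was -1.17 in the mean of both (SE 0.247, adjusted p = 0.00800). Leaving out GFPsh replicate 2 ended the last of these calls (0.0525). MYC (0.27), PPARGC1B (-0.40) and PPRC1 (0.07) were not called in the mean of both hairpins, with adjusted p of 0.214 to 0.768.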

How the data were processed

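Low-input MARS-seq libraries of total RNA, a method that tags transcript 3′ ends, came from 9 EGI-1 samples. The deposited values were raw counts per gene, made by the authors with featureCounts 1.6.0 over the exons of GENCODE 28, per the file headers, whose command lists no option for strand, multi-mapping or overlapping reads. FastQC 0.11.5, STAR 2.5.3a and hg38 are named per the submitters' processing notes. Whether molecular identifiers were collapsed is not given in the sources used.

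From the counts, R 4.3.3 with edgeR 4.0.16 and limma 3.58.1 kept genes by expression (minimum count 10, minimum total 15), which left 12814 genes, scaled them by TMM and fitted 1 quasi-likelihood model of the 3 groups to all 9 libraries. Adjusted p-values are Benjamini-Hochberg over all genes tested, with calls under 0.05, and the SE is the log2 fold change divided by the root of its F. The common biological coefficient of variation was 16.4%. Library totals of 6893026 to 10604251 put 3 counts, the limit a count of 0 allows, at 0.283 to 0.435 CPM. Such limits cover counting error only.

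All members that passed were named, and from each nuclear list its called genes and up to 4 genes with the smallest p in the mean of both hairpins. Members and lists were chosen with earlier results of these data known. The fit was tested on simulated data. Alternatives were library totals, nuclear genes only or summed mitochondrial counts for scaling, no filter, DESeq2 1.42.0, only the groups compared, a replicate term and each library left out. Gene positions and sequences are from GENCODE release 29 transcripts on hg38, whose coordinates equal those of the files for all 37 genes. One gene of the cell type marker lists is not reported here.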

Additional observations from a re-analysis of the deposited data

Results flagged for a closer look

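Of the genes described, 7 differed between the hairpins when FOSL1sh3 was tested directly against FOSL1sh10 with edgeR's quasi-likelihood test. Over all genes tested 5.74% were called higher with FOSL1sh3 and 7% lower. Nuclear genes were named partly because they were called, so how many of them appear here is not a result. On the log2 scale FOSL1sh3 was higher by 0.73 for MT-ND2, 1.13 for MT-ND4 and 1.10 for MT-CYB. It was lower by the log2 differences -0.64 for GRSF1, -1.16 for GABPB1, -0.77 for the nuclear copy MTCO1P40 and -0.64 for POLG2, a subunit of the mitochondrial DNA polymerase. MTCO1P40 was at 64.7, 50.2 and 26.9 CPM with FOSL1sh3 and 63.3, 101 and 77.5 CPM with FOSL1sh10, so the hairpins overlapped. POLG2 was at 12.3, 16.0 and 14.1 CPM with FOSL1sh3 and 18.3, 26.0 and 21.6 CPM with FOSL1sh10, with all FOSL1sh3 libraries lower.

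The calls of MT-ND4 and MT-CYB ended without FOSL1sh3 replicate 1, the library with the largest mitochondrial share and total, and their part in these levels was not tested. Both calls also ended without FOSL1sh10 replicate 2 or 3. The difference of POLG2 ended without FOSL1sh3 replicate 1 or 3 or FOSL1sh10 replicate 2 or 3 (adjusted p = 0.0594 to 0.182). That of MTCO1P40 ended without FOSL1sh3 replicate 2 or 3, FOSL1sh10 replicate 2 or 3 or GFPsh replicate 1 or 2 (0.0505 to 0.236), and that of GABPB1 without FOSL1sh3 replicate 3 or FOSL1sh10 replicate 2 or 3 (0.0549 to 0.123). MT-ND2 kept its call in all 9 fits with a library left out. It was not called by edgeR when scaled to summed mitochondrial counts (0.44, adjusted p = 0.305).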

How the results depend on the processing

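Of the mitochondrial calls over all 4 comparisons and all alternatives, 266 kept their direction and threshold and 48 no longer passed, and none reversed. MT-ND4L against GFPsh passed in every alternative with either hairpin. The cause of the changes below was not tested. Scaled to summed mitochondrial counts, 3 mitochondrial genes were lower with FOSL1sh10, 2 in the mean of both hairpins, and 0 were higher in FOSL1sh3 against FOSL1sh10. Without a filter on low counts 2 were higher with FOSL1sh3 (MT-CO2 and MT-ATP6), 1 in the mean (MT-CO2) and 8 in FOSL1sh3 against FOSL1sh10. That fit also called MT-TP lower with FOSL1sh3, MT-TF, MT-RNR1 and MT-TV lower with FOSL1sh10, and MT-RNR1, MT-ND4 and MT-CYB lower in the mean. Fitting only the groups compared gave 1124 genes called with FOSL1sh10, against 676. Library totals alone moved the median log2 fold change of all genes to 0.105 for FOSL1sh10 against GFPsh and -0.171 for FOSL1sh3 against FOSL1sh10, and the higher share of calls to 33.99%, 77.5% and 17.6% for FOSL1sh3 against GFPsh, FOSL1sh10 against GFPsh and FOSL1sh3 against FOSL1sh10, where TMM gave 48.0%, 59.3% and 45.1%. With all mitochondrial counts as the denominator the complex I share was 12.9% with FOSL1sh3, 13.2% with FOSL1sh10 and 17.2% with GFPsh. The groups then overlapped. GFPsh replicate 1 (14.07%) lay below FOSL1sh3 replicate 3 (14.25%), FOSL1sh10 replicate 1 (14.30%) and FOSL1sh10 replicate 2 (14.15%). Scaling on nuclear genes only changed none of these counts by over 1.5 times.

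With the replicate number as a block, genes called numbered 1456 with FOSL1sh3, 695 with FOSL1sh10 and 812 in their mean, each against GFPsh, and 1673 between the hairpins, where 1392, 676, 797 and 1633 were called without it. Among the genes described, the block added calls for MT-RNR1 with FOSL1sh10 (-0.70) and for MT-ND4 (-0.65), MT-CYB (-0.69) and TFAM (-0.45) in the mean, and it ended none. The samples share only a number: deviations of same-numbered libraries correlated at 0.18, 0.03 and 0.13 between FOSL1sh3 and GFPsh, at -0.12, -0.10 and 0.04 between FOSL1sh10 and GFPsh, and at -0.04, 0.03 and -0.02 between the hairpins.

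With 1 library left out, genes called numbered 599 to 1803 for FOSL1sh3 against GFPsh, 347 to 919 for FOSL1sh10 against GFPsh, 312 to 1002 for the mean and 712 to 1920 for FOSL1sh3 against FOSL1sh10. Mitochondrial genes called lower numbered 3 to 6, 4 to 7 and 4 to 9 in the comparisons with GFPsh, those called higher with FOSL1sh3 0 to 1, and those higher in FOSL1sh3 against FOSL1sh10 1 to 4. The count with FOSL1sh3 was 599 without GFPsh replicate 1, that with FOSL1sh10 347 without FOSL1sh10 replicate 2, that of the mean 312 without GFPsh replicate 3 and that of the hairpins 712 without FOSL1sh10 replicate 2.

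Signs changed only for log2 differences that were not called with all libraries. For FOSL1sh3 against GFPsh, MT-TF gave -0.055 with library totals, -0.25 with mitochondrial scaling, -0.018 with DESeq2 and -0.25 with the block, MT-ND4 -0.066, -0.21 and -0.15 with library totals, mitochondrial scaling and the block, MT-TY -0.016 with mitochondrial scaling and PPRC1 -0.046 with library totals. For FOSL1sh10 against GFPsh, mitochondrial scaling gave 0.0098 for MT-RNR2, 0.16 for MT-TI, 0.068 for MT-TC and 0.097 for MT-CO3, and library totals 0.047 for MT-TI and 0.0015 for NSUN4. In the mean MT-TC gave -0.0085 without a filter and -0.00063 with DESeq2. For FOSL1sh3 against FOSL1sh10, mitochondrial scaling gave -0.13 for MT-ND1, -0.077 for MT-TI, -0.078 for MT-ND4L and -0.028 for MT-ND5, and library totals -0.13 for NDUFA5, -0.011 for FASTKD1, -0.034 for PTCD2, -0.071 for MYC and -0.13 for MTND1P23.

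Leaving out 1 library, FOSL1sh3 against GFPsh ranged from -1.16 to 0.45 for MT-TF, -0.77 to 0.0038 for MT-RNR1, -0.20 to 0.54 for MT-RNR2, -0.34 to 0.063 for MT-TL1, -0.23 to 0.74 for MT-TY, -0.22 to 0.11 for MT-CO1, -0.11 to 0.27 for MT-ATP8, -0.32 to 1.07 for MT-ATP6, -0.68 to 0.28 for MT-ND4, -0.63 to 0.25 for MT-CYB, -0.078 to 0.10 for PPRC1, -0.38 to 1.23 for MTATP6P1, -0.31 to 0.059 for MTRNR2L8 and -0.52 to 0.066 for MTCO1P40. FOSL1sh10 against GFPsh ranged from -0.56 to 0.0035 for MT-RNR2, -0.30 to 0.21 for MT-TI, -0.77 to 0.19 for MT-TY, -0.19 to 0.39 for MT-ATP6 and -0.28 to 0.031 for TFB2M. The mean ranged from -0.20 to 0.20 for MT-RNR2, -0.070 to 0.19 for MT-TI, -0.11 to 0.092 for MT-TC, -0.50 to 0.46 for MT-TY, -0.022 to 0.16 for MT-CO1, -0.11 to 0.58 for MT-ATP6, -0.023 to 0.15 for MT-CO3, -0.025 to 0.14 for PPRC1 and -0.0016 to 0.34 for MTCO1P40. FOSL1sh3 against FOSL1sh10 ranged from -0.0083 to 1.82 for MT-TF, -0.035 to 0.70 for MT-RNR1, -0.00056 to 0.81 for MT-RNR2, -0.043 to 0.47 for MT-TI, -0.00063 to 0.72 for MT-CO2, -0.42 to 0.97 for MT-ATP6, -0.17 to 0.14 for FOSL1, -0.15 to 0.21 for NDUFA5, -0.18 to 0.31 for FASTKD1, -0.31 to 0.011 for PNPT1, -0.0073 to 0.18 for MYC, -0.51 to 0.094 for PPARGC1B, -1.28 to 0.50 for MTATP6P1 and -0.30 to 0.27 for MTND1P23. Low counts left 15 tRNA genes untested, and why these counts were low was not tested. The spread of MT-CO2, MT-ATP6 and MT-RNR2 between libraries limits what 3 libraries a group can show.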
